A study of Mus musculus with 18 samples.

Results

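The phagocyte NADPH oxidase genes Cybb, Cyba, Ncf1 and Ncf4 were followed over every sample group of a mouse array series on basophils and mast cells. The members were taken by gene symbol from the array's annotation, with the brightest probe standing for a gene that had several. All 4 were measured, each by 1 probe, among 19084 genes named on the array.

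Total RNA of 6 groups was hybridised to single-colour arrays, with 3 arrays per group and 18 in all, and every group carried the strain label C57Bl/6. Basophils were purified from bone marrow taken 3 days after the mice received complexes of IL-3 and anti-IL-3 antibody, which expand basophils in the animal. Mast cells were grown from bone marrow for 4 weeks in 20 ng/ml IL-3. The labels name no genotype for the purified basophils or the mast cells. The other 4 groups were purified basophils kept for 5 days in 20 ng/ml IL-3. They were either Cebpa +/+ RosaYFP/creER, called wild type here, or Cebpa f/f RosaYFP/creER, called floxed, and either stayed untreated or received 100 nM 4-hydroxytamoxifen for the 5 days. The tamoxifen metabolite activates a Cre recombinase fused to an oestrogen receptor domain, which then cuts out the floxed Cebpa sequence. All cultured basophil groups carried the RosaYFP/creER alleles, so a comparison of treated floxed with treated wild type cells shared both drug and Cre. The labels name neither the promoter that drives Cre, nor the age of the mice, nor a vehicle for the drug. Cebpa encodes a transcription factor of granulocyte and monocyte genes. The labels describe the treated floxed cells as Cebpa knockouts.

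The phagocyte oxidase passes electrons from NADPH across a membrane to oxygen and so makes superoxide, the start of the oxidative burst with which neutrophils and macrophages kill ingested microbes. Its membrane core is a flavocytochrome of gp91phox, encoded by Cybb, and p22phox, encoded by Cyba. Cytosolic subunits, among them p47phox (Ncf1) and p40phox (Ncf4), join the core together with a Rac GTPase when the cell is stimulated. Loss of single subunits causes chronic granulomatous disease. The arrays measure transcripts, not oxidase protein or superoxide.

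Values are quantile-normalized intensities, and an intensity up to 30 is called background. Between 47.3% and 54.8% of probes lay above that limit on an array. No 2 arrays held identical values, and arrays of a group correlated at 0.9904 to 0.9938 (Pearson r across probes). The labels do not say that the arrays of a group came from separate mice or cultures, so each p-value is set against the spread of these arrays alone, which may be technical. The targeted gene followed its labels, at 2778 ± 219.98 (SD, n = 3) in treated wild type and 65.5 ± 6.60 in treated floxed basophils (log2 fold change -5.10, adjusted p = 4.75e-15). Untreated floxed basophils held Cebpa at 983 ± 63.5 against 2369 ± 203 in untreated wild type cells (-1.25, adjusted p = 2.77e-07), so the genotypes already differed in Cebpa without drug. Mast cells had 55.5 ± 9.13 and purified basophils 2243 ± 144. Basophil markers summed to at least 145451 in every basophil group and to at most 70587 in mast cells, and mast cell markers were highest in mast cells (137962 to 141041). Treated floxed basophils had the next highest mast cell marker sum, at 116456 to 122427.

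The 4 subunits did not follow one pattern. Cybb was highest in purified basophils and at background in mast cells. Cyba was above background in all 6 groups and had the smallest fold range of group means. Ncf1 was high wherever Cebpa was high and low in mast cells and in treated floxed basophils. Ncf4 was lowest in purified basophils and highest in treated floxed basophils.

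**Figure D1:**
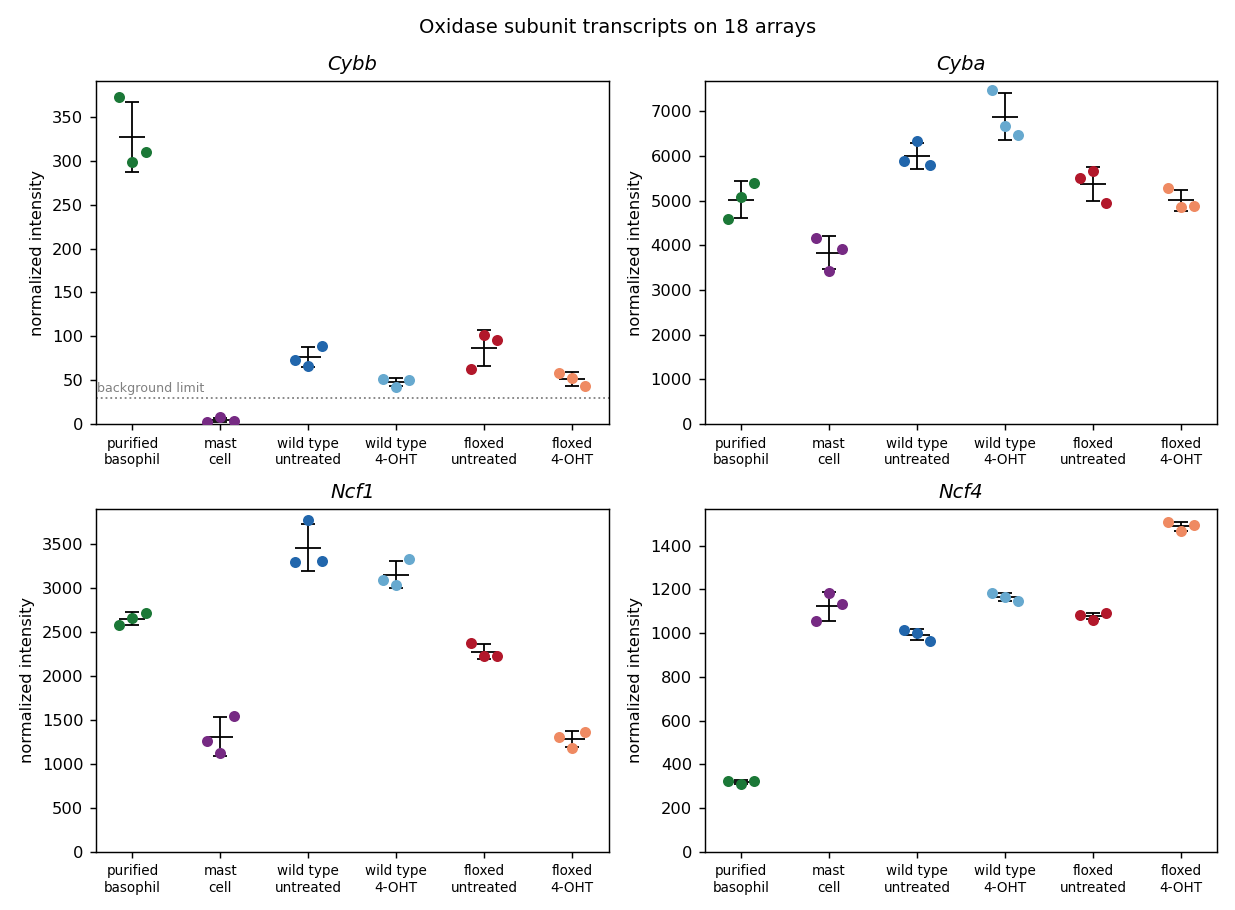
Normalized intensity (vertical axis, starting at 0, with its own range for each gene) of Cybb, Cyba, Ncf1 and Ncf4 in the 6 groups on the horizontal axis. Each point is 1 array, the long dash is the mean of 3 arrays and the bars are 1 SD; the dotted line in the Cybb panel is the background limit of 30. Cybb stood at 299 to 373 in purified basophils and below 8 in mast cells, Ncf1 at 1177 to 1355 in treated floxed basophils, and Ncf4 at 310.3 to 325 in purified basophils.

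Purified basophils were compared with mast cells, the pair of cell types the series sets side by side. Cybb, Cyba and Ncf1 were higher in basophils and Ncf4 was lower, so all 4 members passed the test, where 40.9% of the 26423 probes did (18.4% higher, 22.5% lower). The members' median log2 fold change was 0.71, against -0.042 over all probes. Fold changes here and below are differences of log2(normalized intensity + 16), which understate the change of dim genes, and their adjusted p-values are from limma with Benjamini-Hochberg adjustment over all probes.

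After 5 days in culture, untreated wild type basophils differed from purified basophils in all 4 members, where 35.2% of probes passed. Cyba, Ncf1 and Ncf4 were higher (17.4% of probes were) and Cybb lower (17.8%). Between untreated wild type basophils and mast cells all 4 passed too, against 39.6% of probes: Cybb, Cyba and Ncf1 were higher (17%) and Ncf4 lower (22.5%). These comparisons share arrays with the first, so they do not count as separate evidence. Below, "after culture" names the comparison of untreated wild type cultured with purified basophils. The cultured cells carried the RosaYFP/creER alleles and the purified basophils had no named genotype, so culture and genotype cannot be told apart in it. The groups also differed in the marker sums of other cell types, given below.

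Treated floxed basophils, set against treated wild type basophils, had less Ncf1 and Cyba and more Ncf4, and did not pass for Cybb. That made 3 of 4 members, where 31.1% of probes passed (16% higher, 15.1% lower). Without drug, floxed and wild type cells differed past the test in Ncf1 alone among the members, lower in the floxed cells, against 16.1% of probes (8.69% higher, 7.43% lower). Against mast cells, treated floxed basophils were higher in Cybb, Cyba and Ncf4 and did not pass for Ncf1, where 35.7% of probes passed (15.8% higher, 19.9% lower).

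In floxed basophils the drug lowered Cybb and Ncf1 and raised Ncf4, and Cyba did not pass, against 19.9% of probes (9.82% lower and 10.1% higher). In wild type basophils Cybb was lower and Ncf4 higher with drug, against 21.8% of probes (10.3% lower and 11.4% higher), and Cyba and Ncf1 did not pass. The difference of these drug effects between genotypes, tested as an interaction, passed for Ncf1 alone among the members, where 13.1% of probes passed (6.39% higher, 6.73% lower). With 4 members, these counts describe the set and give no test of it.

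**Figure D2:**
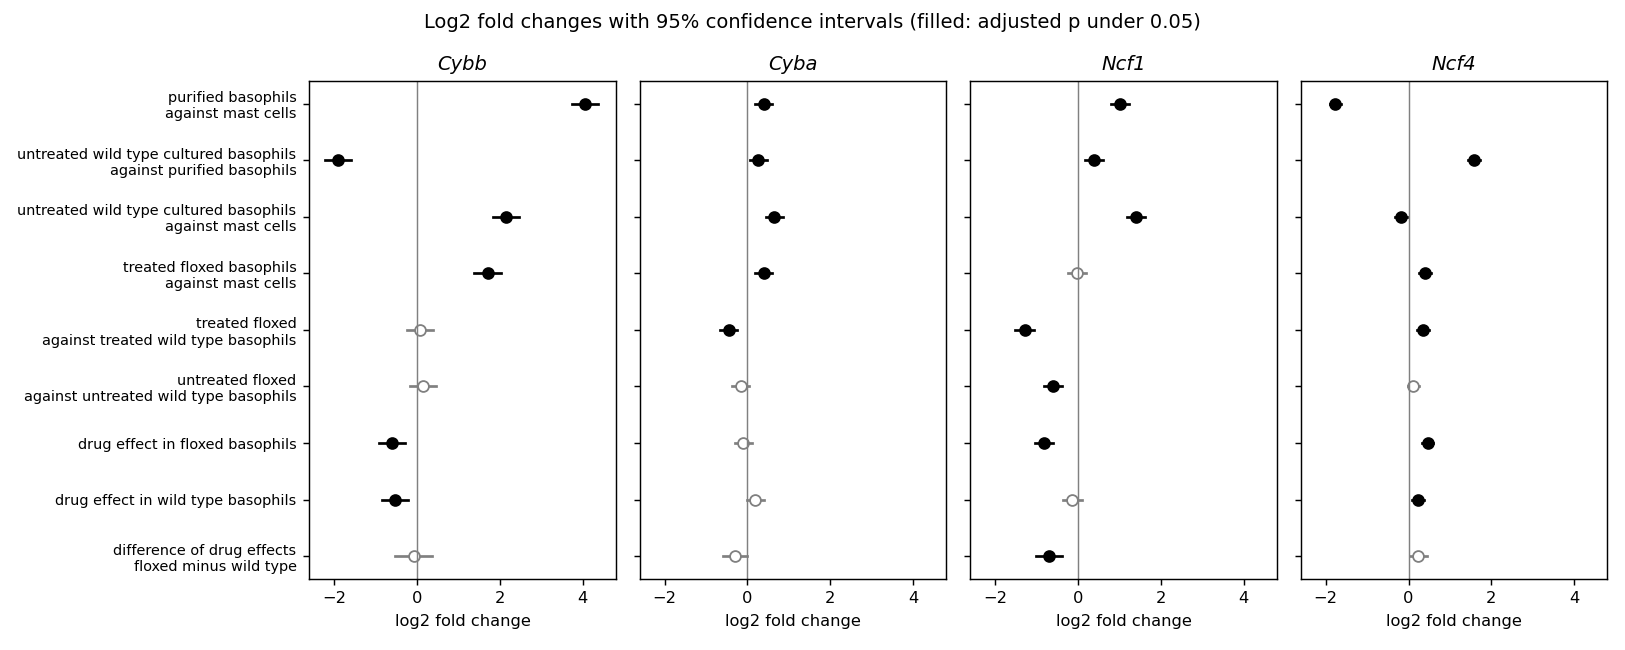
Log2 fold change (horizontal axis, the same range in each panel) of each subunit in the 9 comparisons on the vertical axis. Points are limma estimates from 3 arrays per group, lines are 95% confidence intervals and filled points have an adjusted p under 0.05. Cybb spans -1.90 to 4.05, whereas no Cyba estimate exceeds 0.65 in either direction.

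Cybb, the catalytic subunit that carries the flavin and haem groups, was measured by the probe mMC007213. The RefSeq promoter window of Cybb, 250 bases before to 50 after the annotated start on build GRCm38.p6, was searched on both strands for TTGCNNAA, a C/EBP type motif, and GAGGAA, a PU.1 type motif. It held no TTGCNNAA and 1 GAGGAA, so no matches overlapped. The GAGGAA lay on the strand opposite the gene, read there as TTCCTC, with its first base at position 10 of the transcript. The stretch is shown, in gene orientation with the match in capitals (chrX:9469298-9469327, minus strand), because Cybb was the subunit with the widest range of levels.
Cybb match: tgctgttttcatTTCCTCatcagaagaaga
Of 32851 RefSeq windows of this length, 28.3% held GAGGAA and 10.8% held TTGCNNAA. A match describes letters, not a bound site.

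In purified basophils the Cybb intensities were 373, 299 and 310.4, a mean of 327 ± 39.5 (SD, n = 3). Mast cells gave 2.61, 7.72 and 3.83, all at background. The groups did not overlap, and Cybb was at least 10.9-fold higher in purified basophils when the mast cell arrays were set at the limit of 30 (log2 fold change 4.05 ± 0.15 (SE), adjusted p = 2.93e-13). With an offset of 50 in place of 16 the log2 difference was 2.78, still past the test.

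Cultured basophils held far less Cybb than purified ones. Untreated wild type arrays read 73.1, 66.4 and 88.7 (76.1 ± 11.5), all below the lowest purified basophil array, a 3.73-fold difference (log2 -1.90 ± 0.15, adjusted p = 1.42e-08). They still exceeded mast cells at least 2.52-fold (2.15 ± 0.15, adjusted p = 1.88e-09; 1.20 with the offset of 50).

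The drug lowered Cybb in both genotypes. Treated wild type arrays read 51.7, 42.3 and 49.7 (47.9 ± 4.97), all under the untreated arrays (-0.52 ± 0.15, adjusted p = 0.0175). Floxed basophils went from 63.2, 102 and 95.6 untreated (86.8 ± 20.7) to 58.4, 52.1 and 43.6 with drug (51.4 ± 7.44), again without overlap (-0.59 ± 0.15, adjusted p = 0.00796). These treated levels lay within 30 intensity units of the background limit. The fall in wild type cells no longer passed with arrays scaled on the median (adjusted p = 0.0855), without the third untreated array (0.0896) or without the second treated array (0.0789).

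No genotype difference in Cybb passed the test. Treated floxed and treated wild type arrays overlapped, with a difference of 0.074 ± 0.15 and a 95% interval from -0.24 to 0.39 (adjusted p = 0.782). Untreated, the arrays overlapped as well and the difference was 0.15, with an interval from -0.17 to 0.46 (adjusted p = 0.623). The drug effects differed between genotypes by -0.072 ± 0.21, with an interval from -0.52 to 0.37 (adjusted p = 0.892). These intervals include changes as large as -0.52 and 0.46 on the log2 scale. Treated floxed basophils nonetheless stayed above mast cells at least 1.70-fold (1.70 ± 0.15 on the log2 scale, adjusted p = 6.69e-08; 0.89 with the offset of 50).

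Cybb is a gene of neutrophils, monocytes, macrophages and eosinophils, and the summed levels of their markers were highest in purified basophils and lowest in mast cells, as Cybb was. The 11 measured neutrophil markers summed to 98469 to 101864 in purified basophils (10 above background), to 29483 to 32225 in untreated wild type cultures (10 above background) and to 682 to 720 in mast cells (7 above background, with S100a8, Ngp, Retnlg and Cxcr2 at background). The S100a8 probe was at background in all 6 groups. The 10 monocyte and macrophage markers summed to 33823 to 35407, 15070.2 to 16609 and 3595 to 3799 in the same groups, with Csf1r, Ly86, Mrc1, C1qa and C1qb at background in mast cells and all 10 above it in the basophil groups. The 7 eosinophil markers summed to 48916 to 50273, 4801 to 4967 and 632 to 727, with Siglecf at background in mast cells. Single markers did not all follow the sums. From purified to untreated wild type cultured basophils, 2 neutrophil markers were higher and 7 lower, 4 monocyte and macrophage markers higher (Mrc1, Adgre1, Cd68 and F13a1) and 6 lower with a median of -0.47, and no eosinophil marker higher and 6 lower. Over all probes 17.4% were higher and 17.8% lower in that comparison. With drug, where Cybb fell, the neutrophil sum went down to 17585 to 18056 in wild type basophils (3 of 11 markers higher, 5 lower). In floxed basophils it went from 10488 to 11491 down to 3498 to 4019 (none higher, 9 lower). The monocyte and macrophage sums overlapped in wild type and fell in floxed basophils, where 5 of 10 markers were higher and 3 lower. The eosinophil sum fell in wild type and rose in floxed basophils. Over all probes 21.8% and 19.9% passed. In bulk RNA, fewer cells of a type and less RNA per cell cannot be told apart, and the part of such cells in the Cybb result was not tested.

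Between the treated genotypes the marker sums differed, whereas Cybb did not pass the test. The neutrophil sum was 17585 to 18056 in treated wild type and 3498 to 4019 in treated floxed basophils, with Ngp and Elane at background beside S100a8 in the latter, while Cybb was 47.9 and 51.4. The monocyte and macrophage sum was 15873 to 16608 and 11286 to 11440.5, with 1 of 10 markers higher and 9 lower. Over all probes 16% were higher and 15.1% lower between the treated genotypes. The eosinophil sum was 3859 to 4110.06 and 10894 to 11207, carried by Prg2 (3098.5 and 10555 on average), whereas 3 of 7 eosinophil markers were higher and 4 lower, with a median log2 fold change of -0.66. In purified basophils B cell markers summed to 1243 to 1409 (3 of 5 above background), T and NK cell markers to 3876 to 4328 (3 of 6) and erythroid markers to 2210 to 2286 (4 of 4). Those 3 sums were lower in all other groups, at no more than 970. Ms4a1, Pax5, Cd3g, Klrd1 and Ncr1 were at background in purified basophils.

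**Figure D3:**
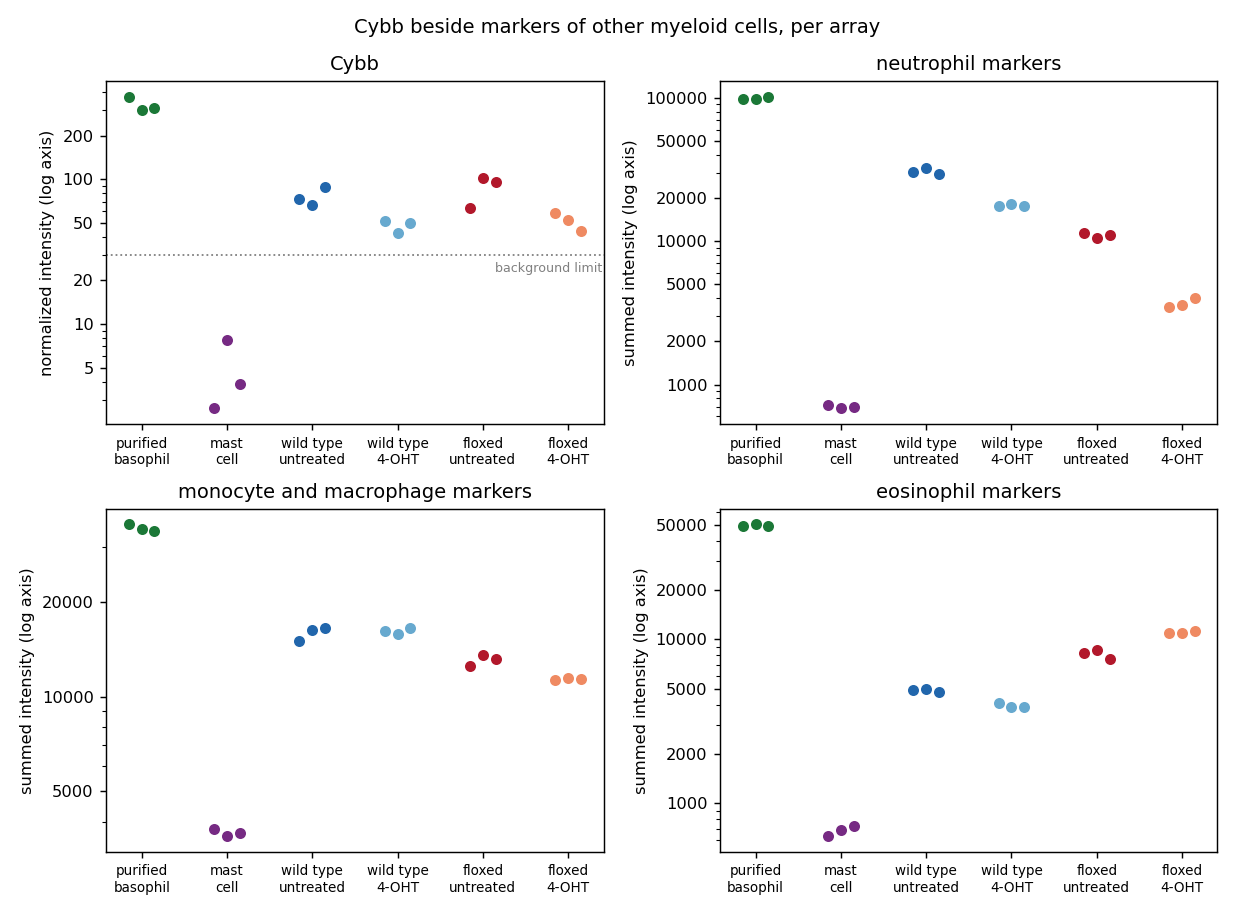
Cybb intensity and the summed intensities of neutrophil, monocyte and macrophage, and eosinophil markers, 1 point per array, on log axes with a range of their own; groups are on the horizontal axis and the dotted line is the background limit of 30. Cybb and all 3 sums were highest in purified basophils and lowest in mast cells, and from treated wild type to treated floxed basophils the neutrophil sum went from 17585 to 18056 down to 3498 to 4019 while the Cybb points overlapped.

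Cyba encodes p22phox, the partner that stabilises gp91phox in the membrane and docks p47phox, and other NADPH oxidases use it as well. It was measured by the probe mMC011118 and was far above background on every array. Its RefSeq window held neither motif.

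Purified basophils had Cyba at 4584, 5081 and 5406 (5024 ± 414). Mast cells had 4171, 3428 and 3910 (3836 ± 377), all below the basophil arrays. The difference was 0.39 ± 0.095 on the log2 scale (adjusted p = 0.00301). Scaling the arrays on their medians ended that call (adjusted p = 0.0738), and leaving them unscaled gave a difference of 0.83.

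Untreated wild type cultures read 5879, 6335 and 5802 (6005 ± 288), above every purified basophil array, by 0.26 ± 0.095 (adjusted p = 0.0441). That call did not hold generally. It was lost with median scaling (adjusted p = 0.552), without normalization (0.436), with the groups fitted alone (0.0656), with a replicate block (0.0595) and without any one of 5 arrays, the first or second purified basophil array (0.188 and 0.076) or the first, the second or the third untreated wild type array (0.0742, 0.15 and 0.0629). Against mast cells the same cultures were higher by 0.65 ± 0.095 (adjusted p = 2.35e-05) under every alternative run.

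With drug, wild type cultures read 7476, 6674 and 6479 (6876.5 ± 528), the highest Cyba levels of the series. They lay above the untreated arrays without overlap, but the difference of 0.19 ± 0.095 did not pass (adjusted p = 0.18) and was -0.15 without normalization. Floxed cultures read 5511, 5670.5 and 4955 untreated (5379 ± 376) and 5278, 4864 and 4888 with drug (5010.1 ± 233). In the order of levels untreated floxed, purified and treated floxed basophils were neighbours that overlapped. The drug difference in floxed cells was -0.10 (95% interval -0.30 to 0.10, adjusted p = 0.557) and passed in 1 of 15 alternatives, the scaling on probes above background (-0.29, with an adjusted p of 0.0487).

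Treated floxed basophils were 1.37-fold below treated wild type basophils in Cyba (-0.45 ± 0.095, adjusted p = 0.00127), and this held in all 15 alternatives. Untreated floxed arrays lay below all untreated wild type arrays, yet the difference of -0.16 did not pass (interval -0.36 to 0.042, adjusted p = 0.324) and turned to 0.078 with median scaling. The drug effects differed by -0.29 ± 0.13, which did not pass (adjusted p = 0.189). Against mast cells, treated floxed basophils were higher by 0.39 ± 0.095 (adjusted p = 0.00373), a call lost with median scaling (0.364) and with scaling on probes above background (0.0534).

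Ncf1 encodes p47phox, the organiser that is phosphorylated on stimulation and carries the cytosolic subunits to the membrane. It was the member that differed most between genotypes. Its probe was PH_mM_0000964. The 250 bases before the RefSeq start of Ncf1 (GRCm38.p6, chr5:134229626-134229875, minus strand, in gene orientation) are shown because the genotypes differ in a C/EBP factor and Ncf1 differed most between them. The window of 300 bases held no match to TTGCNNAA or GAGGAA on either strand, which says only that these letters are not in it, so no base is in capitals.
Ncf1 upstream: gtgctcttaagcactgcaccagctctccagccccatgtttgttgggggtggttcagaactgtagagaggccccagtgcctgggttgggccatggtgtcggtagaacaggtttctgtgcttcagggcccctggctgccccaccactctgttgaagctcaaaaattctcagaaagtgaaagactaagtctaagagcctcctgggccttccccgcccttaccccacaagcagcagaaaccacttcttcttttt

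Treated wild type basophils had Ncf1 at 3082, 3033 and 3320.4 (3145 ± 154). Treated floxed basophils had 1299, 1177 and 1355 (1277 ± 91.0), all well under the lowest wild type array. Ncf1 was 2.45-fold lower in the floxed cells (-1.29 ± 0.10, 95% interval -1.51 to -1.07, adjusted p = 3.82e-08), in all 15 alternatives.

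A smaller difference was present without drug. Untreated wild type arrays read 3295, 3763 and 3306 (3455 ± 267) and untreated floxed arrays 2369, 2224 and 2224 (2273 ± 83.8). The groups did not overlap and differed 1.51-fold (-0.60 ± 0.10, adjusted p = 5.06e-04), a call lost with median scaling (-0.41, adjusted p = 0.0828).

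The drug lowered Ncf1 1.77-fold in floxed basophils (-0.83 ± 0.10, adjusted p = 1.52e-05). In wild type basophils, treated and untreated arrays overlapped and the change of -0.13 ± 0.10 did not pass (interval -0.35 to 0.086, adjusted p = 0.435), though it was -0.45 without normalization and then passed (adjusted p = 0.00283). The drug effects differed between genotypes by -0.69 ± 0.15 (interval -1.002 to -0.38, adjusted p = 0.00396), and this interaction passed in all 21 alternatives.

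Purified basophils lay between the genotypes in Ncf1, at 2573, 2656 and 2716 (2649 ± 71.8). Mast cells had 1253, 1123 and 1548 (1308 ± 218), below every purified basophil array, a 2.03-fold difference (1.02 ± 0.10, adjusted p = 2.71e-07; 1.56 without normalization). Untreated wild type cultures exceeded purified basophils by 0.38 ± 0.10 (adjusted p = 0.0075), which no longer passed with median scaling (0.299) or without normalization (0.17), and exceeded mast cells 2.64-fold (1.40 ± 0.10, adjusted p = 4.39e-09).

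Treated floxed basophils and mast cells overlapped in Ncf1. Their difference was -0.024 ± 0.10, with a 95% interval from -0.24 to 0.20 (adjusted p = 0.895). It took the opposite sign without normalization (0.14), without the third mast cell array (0.10) and without the second treated floxed array (0.033), and passed in none of the alternatives. The interval leaves room for a change of about that size in either direction.

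Mast cell markers rose and neutrophil markers fell together with the Ncf1 difference between treated genotypes. Of 7 measured mast cell markers 5 were higher and none lower in treated floxed basophils (31.1% of all probes passed there), and the sum was 116456 to 122427 against 82211 to 83389.5. Of 11 neutrophil markers 9 were lower and 1 higher, and of 10 monocyte and macrophage markers 9 were lower and 1 higher. The basophil marker sum was 145451 to 151264 against 164335 to 170961, with 2 of 8 markers higher and 3 lower. Without drug, 8 of 11 neutrophil markers were lower and 1 higher in floxed basophils. Of 10 monocyte and macrophage markers 7 were lower and 1 higher, and of 7 mast cell markers 3 were lower and none higher. Over all probes 7.43% were lower and 8.69% higher between the untreated genotypes. The part of these markers in the Ncf1 results was not tested.

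Ncf4 encodes p40phox, which binds phosphatidylinositol 3-phosphate on phagosomes and sustains the oxidase there. Measured by the probe PH_mM_0008160, it ran opposite to Ncf1 between purified basophils and mast cells and between the treated genotypes. No promoter window was used for it.

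Purified basophils had the lowest Ncf4, at 325, 310.3 and 323 (319 ± 7.87). Mast cells read 1053, 1184 and 1131 (1123 ± 65.95), and untreated wild type cultures 1013, 998 and 964 (992 ± 24.9). Ncf4 was thus 3.39-fold lower in purified basophils than in mast cells (-1.76 ± 0.067, adjusted p = 4.86e-13). It was 3.01-fold higher in untreated wild type cultures than in purified basophils (1.59 ± 0.067, adjusted p = 4.73e-12). Both differences held in every alternative. The neutrophil, monocyte and macrophage, and eosinophil sums given for Cybb ran the other way in these groups, highest where Ncf4 was lowest.

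Untreated wild type cultures were lower than mast cells in Ncf4 by 0.18 on the log2 scale (log2 fold change -0.18 ± 0.067, adjusted p = 0.0486). This difference did not hold: it was 0.10 without normalization (adjusted p = 0.358), and no longer passed with median scaling (0.0671), scaling on probes above background (0.192), array weights (0.0508), the replicate block (0.0742) or the groups fitted alone (0.16). Leaving out the second or the third mast cell array (0.176 and 0.0991) or any untreated wild type array (0.0713, 0.0901 and 0.144) also ended the call.

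Treated floxed basophils had the highest Ncf4, at 1506, 1466 and 1493 (1488 ± 20.2). Every one lay above the treated wild type arrays of 1182, 1163 and 1145 (1164 ± 18.2), a 1.28-fold difference (0.35 ± 0.067, adjusted p = 5.66e-04) that was lost with median scaling (0.0951). They also exceeded mast cells by 0.40 ± 0.067 (adjusted p = 1.19e-04; 0.123 with median scaling). Between the extremes, treated wild type basophils, mast cells and untreated floxed basophils overlapped as neighbours. Untreated floxed arrays, at 1082, 1062 and 1090.3 (1078 ± 14.6), lay above all untreated wild type arrays, but the difference of 0.12 did not pass (interval -0.024 to 0.26, adjusted p = 0.294).

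In the main fit Ncf4 was higher with drug in both genotypes, but the wild type call did not hold generally. The change was 0.46 ± 0.067 in floxed basophils (adjusted p = 7.86e-05; 0.263 with median scaling) and 0.23 ± 0.067 in wild type basophils (adjusted p = 0.0219). The wild type change was -0.023 without normalization (adjusted p = 0.893) and was not called with median scaling (0.167), scaling on probes above background (0.0938) or the groups fitted alone (0.0652), nor without the first or second treated array (0.0691 and 0.0577) or the second or the third untreated array (0.0546 and 0.0829). The drug effects differed by 0.23 ± 0.095, which did not pass (adjusted p = 0.134), except without normalization (0.40, adjusted p = 0.0255) or with an offset of 50 (0.23, adjusted p = 0.0222), and was -0.037 with median scaling.

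The oxidase needs further proteins, listed here as partners and activators. This list is given for its 11 measured genes. Between purified basophils and mast cells 2 were higher, 3 lower and 6 did not pass, a share near the 40.9% of all probes that passed. Hvcn1, the proton channel that balances the charge the oxidase moves, was 3796 ± 318 in purified basophils and 574 ± 22.5 in mast cells (2.69, adjusted p = 3.09e-12). Prex1, a Rac exchange factor, was higher by 2.06 (adjusted p = 2.71e-11), and Prkcb, a kinase that phosphorylates p47phox, lower, at 571 ± 22.8 against 3615 ± 409.6 (-2.62, adjusted p = 2.41e-13). Arhgdib, which holds Rac inactive in the cytosol, was lower by 0.29 on the log2 scale (-0.29, adjusted p = 0.00776), but this was 0.090 in the other direction without normalization and did not pass with median scaling (0.0655) or the groups fitted alone (0.0576). Rac2, the haematopoietic Rac, gave no settled direction, since its brighter probe was lower (-0.21, adjusted p = 0.019) and its other probe higher (0.83, adjusted p = 1.05e-05).

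In treated floxed against treated wild type basophils 2 of the 11 partners were higher and 5 lower, with a median of -0.15, where 16% of all probes were higher and 15.1% lower. Hvcn1 read 867, 711 and 933 in treated floxed basophils against 3023, 3592 and 3476 in treated wild type basophils. These did not overlap, and the change was -1.99 (adjusted p = 8.44e-10). Cybc1, a chaperone needed for the flavocytochrome, was 360 ± 41.8 against 747 ± 28.2 (-1.03, adjusted p = 6.22e-06). Pik3cg, a lipid kinase acting upstream of the burst, was 4757 ± 112 against 8032 ± 329.9 (-0.75, adjusted p = 4.33e-07). Prkcb was higher, at 2202 ± 120.2 against 969 ± 86.6 (1.17, adjusted p = 4.46e-08). The second higher call, Rac2 at 0.25, rested on its brighter probe, and the other probe gave 0.055 (adjusted p = 0.786). Vav1, another Rac exchange factor, did not pass by its brighter probe (0.41, adjusted p = 0.0518) and was lower by its other one (-0.54, adjusted p = 1.97e-05).

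Hvcn1, like Ncf1, was lower in floxed basophils without drug (-1.18, adjusted p = 1.59e-06), and its drug effects differed between genotypes (-0.81, adjusted p = 0.00312), in every alternative. Without drug, 1 partner was higher and 3 lower, against 16.1% of all probes passing. Beside Hvcn1, Prex1 was lower (-0.61, adjusted p = 5.23e-04; 0.0566 with median scaling) and so was Arhgdib (-0.31, adjusted p = 0.0133; 0.904 with median scaling, 0.0512 with the groups fitted alone and 0.0572 without the third untreated wild type array), and Prkcb was higher (0.49, adjusted p = 0.00139). The interaction passed for 2 partners in the higher and 3 in the lower direction, with Cybc1 at -0.83 (adjusted p = 0.00477; 0.068 without normalization) and Prkcb at 0.68 (adjusted p = 0.00234; 0.373 with median scaling), where 13.1% of all probes passed. The other higher call, Vav1 (0.73, adjusted p = 0.0314), was lost in 10 of 21 alternatives, and its other probe gave -0.16 (adjusted p = 0.401). The drug raised Prex1 in both genotypes, by 1.11 in floxed (adjusted p = 6.09e-07) and 0.93 in wild type basophils (adjusted p = 8.62e-06).

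**Figure D4:**
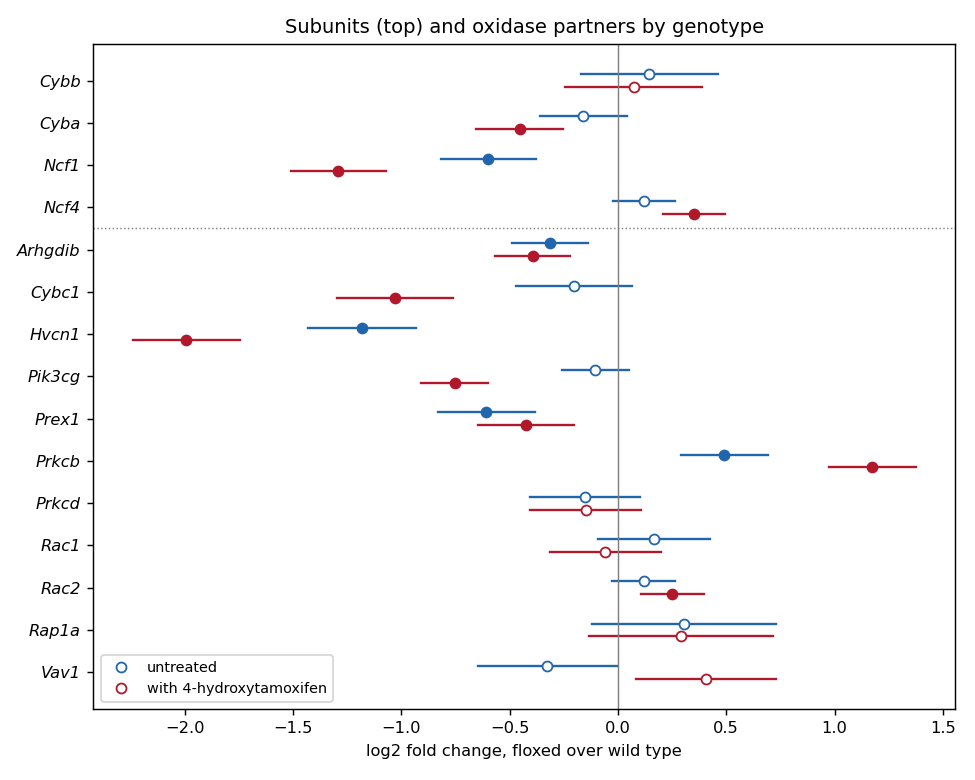
Log2 fold change of floxed over wild type basophils (horizontal axis) for the 4 subunits, above the dotted line, and the 11 measured partners, below it, without drug and with 4-hydroxytamoxifen. Points are limma estimates from 3 arrays per group, lines are 95% confidence intervals and filled points have an adjusted p under 0.05. Hvcn1 and Ncf1 lie furthest to the left with drug, at -1.99 and -1.29, and Prkcb furthest to the right, at 1.17, while both Cybb intervals cross 0.

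From purified to untreated wild type cultured basophils 4 partners were higher and 1 lower, where 35.2% of all probes passed. Cybc1 was higher by 0.80 (adjusted p = 6.04e-05), Prkcd, a kinase of p47phox, by 0.79 (adjusted p = 4.2e-05) and Prex1 by 0.49 (adjusted p = 0.00122; 0.146 with median scaling and 0.186 without normalization), and Hvcn1 was lower (-0.59, adjusted p = 5.94e-04).

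The other NADPH oxidases were mostly not expressed above background. Of 9 measured genes only Nox1, a catalytic homologue of gp91phox, and Noxo1, an organiser homologous to p47phox, exceeded the limit in a group. Nox1 read 106, 94.9 and 132 in mast cells, and its means in the basophil groups were all at background, at 3.06 to 7.83. Mast cells thus had Nox1 and no Cybb above background, and basophils the reverse. Nox1 was at least 3.67-fold higher in mast cells than in purified basophils (log2 fold change of basophils over mast cells -2.73, adjusted p = 1.5e-11). Noxo1 ran from 220.4 ± 10.4 in purified basophils to 387 ± 23.7 in untreated floxed basophils. No gene of the list passed for treated floxed against treated wild type cells, for either drug effect or for the interaction.

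Enzymes that handle superoxide and hydrogen peroxide went both ways. Of 15 measured, 3 were higher and 7 lower in purified basophils than in mast cells, where 18.4% of all probes were higher and 22.5% lower. Mpo, the peroxidase that turns hydrogen peroxide into hypochlorous acid, was higher (32766 ± 1530.5 against 175 ± 9.67, log2 7.42, adjusted p = 1.78e-19), as were Epx, the eosinophil peroxidase (5.36, adjusted p = 2.33e-15), and Gsr, which regenerates glutathione with NADPH (3.60, adjusted p = 3.74e-10). Prdx4, a peroxiredoxin of the secretory pathway, was lower (-3.81, adjusted p = 3.64e-14). Mpo is also on the neutrophil marker list and Epx on the eosinophil list. In treated floxed against treated wild type basophils 4 were higher (16% of all probes were). Among them were Prdx4 (1.60, adjusted p = 1.81e-08), Epx (0.62, adjusted p = 0.00212) and the thioredoxin reductase Txnrd1 (0.53, adjusted p = 7.36e-05). Mpo alone was lower, against 15.1% of all probes (98.9 ± 10.7 against 1495 ± 49.1, -3.72, adjusted p = 1.79e-14).

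Enzymes supplying NADPH, the electron donor, were lower in 2 of 4 measured cases and higher in none in the same comparison, where 31.1% of all probes passed. Idh1, cytosolic isocitrate dehydrogenase, was 1984 ± 231 in treated floxed and 6423 ± 97.8 in treated wild type basophils (-1.69, adjusted p = 1.19e-09). Pgd, of the pentose phosphate pathway, was 588 ± 107 against 1136 ± 122 (-0.94, adjusted p = 7.49e-04). In purified basophils against mast cells Idh1 (1.82, adjusted p = 1.04e-10) and Pgd (1.10, adjusted p = 1.06e-04) were higher, where 40.9% of all probes passed. Malic enzyme Me1 was at background in purified basophils and averaged 72.8 ± 13.7 in mast cells, at least 2.40-fold higher there (adjusted p = 1.91e-09).

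Of 10 transcription factors of myeloid genes, Cebpa among them, 6 were higher and 4 lower in purified basophils than in mast cells, and 3 were higher and 5 lower in treated floxed than in treated wild type basophils. Over all probes 40.9% and 31.1% passed in these comparisons. Irf8, a factor of monocyte and oxidase genes, was lower in the latter (24.2 against 66.8, -1.07, adjusted p = 9.63e-05), with the floxed mean below the background limit. Nfe2l2, which controls antioxidant enzymes, was lower too (-0.93, adjusted p = 4.18e-07), and Hoxa10 was higher (51.2 against 17.8, the latter at background, at least 1.68-fold, adjusted p = 1.12e-04).

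Genes whose levels ran most like each member's were found by Pearson r over the 18 arrays, among genes with a mean intensity of at least 100. All arrays share the 6 groups, so these correlations mostly restate group means and carry no p. For Cybb, among 8258 genes, they were Gpd1 (0.9838), Ptgs2 (0.9836), Junb (0.9821), Psat1 (0.9806) and Gsr (0.9795). For Ncf4, among 8257, they were Lpxn (0.9948), Gzmb (0.9944), Wnt9a (0.9862), Rnf128 (0.9853) and Slc26a11 (0.9829). For Ncf1 they were Myo1d (0.9828), Dgat1 (0.9752), Mocos (0.9704), the IgG receptor gene Fcgr3 (0.9664) and Cebpa itself (0.961). Cyba had the least close matches, with Sidt2 (0.9552), Mgat4a (0.9527), Rhbdf2 (0.9464), Vmn1r51 (0.9403) and Atxn7 (0.9392).

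The matches show the member patterns at other levels. Myo1d, like Ncf1, had 12540 and 11959.6 in untreated and treated wild type basophils and 2732 in treated floxed basophils, near the 2647 of mast cells. Gzmb, like Ncf4, was lowest in purified basophils (816) and highest in treated floxed basophils (37981), with 24074 in mast cells. Ptgs2, like Cybb, went from 1276 in purified to 172 in untreated wild type cultured basophils, and was at background in mast cells (3.52).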

How the data were processed

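The deposited values are whole-number array intensities on a linear scale, some below 0, so background had been subtracted by the authors. The scanner software and any earlier normalization were not given in the sources used here. RNA was extracted with Trizol and a column kit and labelled with a cyanine dye, per the labels' protocols. Probes were named from GEO's platform annotation (21876 with 1 symbol, 4547 with none). Arrays were quantile-normalized, 16 was added, log2 was taken, and all 18 arrays entered 1 fit (lmFit and eBayes of limma 3.58.1, run under R 4.3.3; two-sided; Benjamini-Hochberg over 26423 probes, threshold 0.05). The steps were tested on simulated data.

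Members and lists were chosen with earlier results of these data known. Up to 4 genes per list and comparison were named, by size among those past the test, and the 5 genes most like each member. The background limit of 30 was chosen after the values were seen. A fold against a group at background is a lower bound, the bright group's geometric mean over the dim values raised to 30. Alternatives covered normalization, offset, filter, variance model, array weights, samples fitted, replicate block and each array left out; those for list genes were added after the data were seen. The labels do not say that equal replicate numbers mark a shared mouse, litter or day, so no block was used in the main fit. Promoter windows are RefSeq's (GRCm38.p6), found for 3 of the 4 members. The number of arrays limits the precision.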

Additional observations from a re-analysis of the deposited data

Results flagged for a closer look

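The drug effect on Ncf1 differed between genotypes by -0.69 on the log2 scale (SE 0.15, adjusted p = 0.00396, limma interaction term), because Ncf1 fell with 4-hydroxytamoxifen by 0.83 in floxed basophils, on 3 of 3 arrays below every untreated floxed array, and moved by -0.13 in wild type basophils. Cebpa fell in the same contrast (-3.85). In it 6 of 11 neutrophil markers were lower and 1 higher, and 5 of 7 mast cell markers were higher and none lower, where 13.1% of all probes passed (6.39% higher, 6.73% lower). Of 10 monocyte and macrophage markers 3 were higher and 2 lower, with a median of 0.038. Of 7 eosinophil markers 1 was higher and 1 lower, and of 8 basophil markers 1 was higher and 2 lower. Their part in the result was not tested.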

How the results depend on the processing

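Over 36 member results and 564 alternatives, 509 kept direction and call, 38 lost a call, 4 gained one and 13 changed sign. Some calls held throughout. For Cybb these were purified, untreated wild type and treated floxed basophils against mast cells, after culture, and the drug in floxed cells. For Ncf1 they were purified and untreated wild type basophils against mast cells, the treated genotypes, the drug in floxed cells and the interaction. For Ncf4 they were purified basophils against mast cells and after culture. For Cyba they were untreated wild type basophils against mast cells and the treated genotypes. Median scaling cut the members called from 4 to 2 after culture, from 3 to 1 in treated floxed basophils against mast cells, from 1 to 0 without drug between genotypes and from 2 to 0 for the drug in wild type cells. It also cut the count from 4 to 3 in purified and in untreated wild type basophils against mast cells. Between treated genotypes and for the drug in floxed cells it went from 3 to 2. Without normalization the counts were 2 after culture, 3 in untreated wild type basophils against mast cells and 2 in the interaction (main 1). An offset of 50 also gave 2 in the interaction. The drug count in wild type cells was 1 with scaling on probes above background, 1 with the groups fitted alone and 0 to 2 with an array left out (0 without the second treated or the third untreated array, 1 without the first treated or the second untreated array). The cause of these shifts was not tested.

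Sign changes were these. Median scaling gave Cyba 0.078 between untreated genotypes and Ncf4 -0.037 in the interaction. No normalization gave Ncf4 0.10 in untreated wild type basophils against mast cells, Ncf1 0.14 in treated floxed basophils against mast cells, Cyba -0.15 and Ncf4 -0.023 for the drug in wild type cells, and Cybb 0.13 in the interaction. With an array left out, Ncf1 in treated floxed basophils against mast cells ranged from -0.13 to 0.10, Cybb in the interaction from -0.25 to 0.037 (0.0058, 0.015 and 0.037 were above 0) and Cybb between treated genotypes from -0.0011 to 0.16. No result that changed sign passed under that alternative.

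Over all probes, the share of calls that were higher ran from 43.0% to 53.9% over the 9 comparisons, from 24% to 75% with median scaling, from 22.8% to 78.1% without normalization and from 41.7% to 58.6% with scaling on probes above background. No normalization moved the median of all probes by 0.19 in purified basophils against mast cells, 0.14 in untreated wild type basophils against them and 0.12 in the interaction, and median scaling moved the last by -0.11 and its calls from 3466 to 2042. Same-numbered arrays of different groups correlated at -0.383 to 0.156 in their deviations (median -0.00486 over 45 correlations), and in 0 of 15 group pairs did all 3 exceed 0.1. Deviations within groups of 3 arrays also hold array noise, so they cannot exclude a shared mouse or day. With the replicate block 3 members were called after culture and 3 in untreated wild type basophils against mast cells (4 each without it), and counts elsewhere did not move. Averaging the probes of a gene could not differ, since each member has 1 probe.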
